A study of Mus musculus with 6 samples.

Results

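The Hox B cluster is a row of homeobox genes on mouse chromosome 11, and it was followed here in cultured hepatic stellate cells labelled Nbr1 knock-out and wild type. Its genes were taken as every row of the deposited table whose symbol is Hoxb followed by a number, which gave 10 of 13341 rows, from Hoxb13 at the 5' end through Hoxb9, Hoxb8, Hoxb7, Hoxb6, Hoxb5, Hoxb4, Hoxb3 and Hoxb2 to Hoxb1 at the 3' end. Stellate cells are liver pericytes that store vitamin A and turn into matrix-making myofibroblasts in culture. Both groups held 3 libraries, and all cells came from basal cultures kept for 4 days with 10% serum. The only difference between the groups that the labels state is the genotype, Nbr1 knock-out against wild type. Nbr1 encodes an autophagy cargo receptor. How the knock-out was made, in which cells it was induced, and the strain, sex and age of the animals are not stated in the sources used here. The labels call the samples biological replicates without saying whether each came from its own animal, so p-values measure the spread between these cultures.

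HOX proteins are transcription factors that bind DNA through a homeodomain and give cells along the body axis their positional identity. Genes at the 3' end of a cluster are switched on early and far forward in the embryo, often by retinoic acid, and genes at the 5' end later and further back. Fibroblasts and other mesenchymal cells keep much of this pattern in culture. Polycomb complexes hold silent Hox genes off, and trithorax complexes of the MLL type keep active ones on.

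Of the 10 genes, 8 passed the filter on low values (at least 10 normalized counts in at least 3 libraries) and 2 changed between the labelled groups. In the knock-out label Hoxb8 was 2.14-fold higher and its direct neighbour Hoxb7 3.23-fold lower. Hoxb9 and Hoxb4 were also higher in all 3 knock-out libraries than in any wild-type library, but did not pass the test. Hoxb6, Hoxb5, Hoxb3 and Hoxb2 overlapped between the groups, and Hoxb13 and Hoxb1 were close to undetected. Of all 10540 genes tested with limma at an adjusted p under 0.05, 6.92% passed. The share of tested genes that passed as higher in the knock-out label was 4.67%, and as lower 2.25%. Against this stand 1 of 8 tested Hox B genes higher and 1 of 8 lower. The groups did not overlap for 4 of the 8, where 30.1% of all tested genes showed no overlap. The median log2 change was 0.16 over the 8 genes and -0.01 over all tested genes.

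A normalized count here is a number of 3'-end reads divided by a factor of its library. Since each transcript is read at its end, the value does not grow with transcript length, but how well each gene's end was captured is unknown. Levels of different genes are therefore set side by side as read shares, without a test.

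Library likeness followed the genotype labels only in part. Pearson's r across genes was 0.981 between knock-out libraries 1 and 3 and 0.984 between wild-type libraries 2 and 3. Wild-type library 1 reached 0.875 and 0.888 with knock-out libraries 1 and 3, against 0.857 and 0.856 within its own label. Knock-out library 2 reached 0.946 and 0.924 within its label and 0.901 and 0.903 with wild-type libraries 2 and 3. Changes are therefore also given for knock-out libraries 1 and 3 against wild-type library 1, and for knock-out library 2 against wild-type libraries 2 and 3, without a p since each leaves a group with 1 library. Nbr1 itself stood at 203.7, 188.2 and 175.6 normalized counts in knock-out libraries 1 to 3 and at 204.1, 278.0 and 288.7 in wild-type libraries 1 to 3 (adjusted p = 0.22), and 3'-end reads cannot show a deletion elsewhere in the gene. Sqstm1, which encodes the related cargo receptor p62, had 817.4, 644.6 and 859.1 normalized counts in knock-out libraries 1 to 3 and 24.0, 10.9 and 12.7 in wild-type libraries 1 to 3. The groups are therefore called by their labels throughout. Of 20 stellate cell markers 15 could be followed, while Des, Lrat, Reln, Rgs5 and Hgf had no row under these symbols in the deposited table. Of 14 tested, 7 passed as higher in the knock-out label, among them Acta2, Col1a1, Pdgfrb, Lhx2 and Hand2, and 0 as lower. Lum and Nes, also among the 7, passed the filter through the knock-out libraries alone, so they could only be called as higher. Ecm1, Cygb, Bambi and the barely detected Gfap overlapped between the groups. The summed stellate markers lay between 12500.2 and 13572.5 in the knock-out label and between 5582.1 and 6818.4 in the wild-type label. Most of this sum came from Col1a1, Dcn and Col3a1 in both labels. The 8 mesothelial markers summed to 2184.3 to 2440.8 in the knock-out label and 2625.2 to 2670.2 in the wild-type label, and the 6 portal fibroblast markers to 1481.7 to 1674.7 in the knock-out label and 661.9 to 933.9 in the wild-type label. The 5 hepatocyte, 3 macrophage and 1 endothelial markers that could be followed summed to at most 46.3, 27.5 and 8.3 in any knock-out library and to at most 54.5, 14.7 and 5.4 in any wild-type library, and the 4 cholangiocyte markers, most of whose reads came from Sox9 in the knock-out label, to 541.3 to 570.8 in the knock-out label and 138.6 to 150.8 in the wild-type label. The part of these markers in the Hox B values was not tested, and in bulk RNA fewer cells of a type and less RNA per cell cannot be told apart.

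Summed over the cluster, the libraries held 549, 655 and 428 Hox B reads in knock-out libraries 1 to 3 and 306, 583 and 545 in wild-type libraries 1 to 3, out of 1508518 to 2383879 reads per library. The summed level was 497.0, 562.9 and 507.9 normalized counts in knock-out libraries 1 to 3 and 408.3, 489.6 and 494.8 in wild-type libraries 1 to 3, or 522.6 ± 35.4 in the knock-out label and 464.2 ± 48.5 in the wild-type label (SD, n = 3 each). All 3 knock-out libraries lay above all 3 wild-type libraries, by as little as 497.0 against 494.8. Most of this RNA came from the genes at the 3' end. Hoxb1 to Hoxb4 gave 63.0 ± 5.0% of the sum in the knock-out label and 62.6 ± 11.0% in the wild-type label, and Hoxb5 to Hoxb8 gave 26.1 ± 3.0% in the knock-out label and 30.6 ± 9.2% in the wild-type label (SD, n = 3 each). The 5' genes Hoxb9 and Hoxb13 gave 10.9 ± 2.1% of the sum in the knock-out label and 6.8 ± 1.9% in the wild-type label. The largest share in every library belonged to Hoxb3, from 28.0 to 33.4% in the knock-out label and from 21.6 to 34.9% in the wild-type label.

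**Figure D1:**
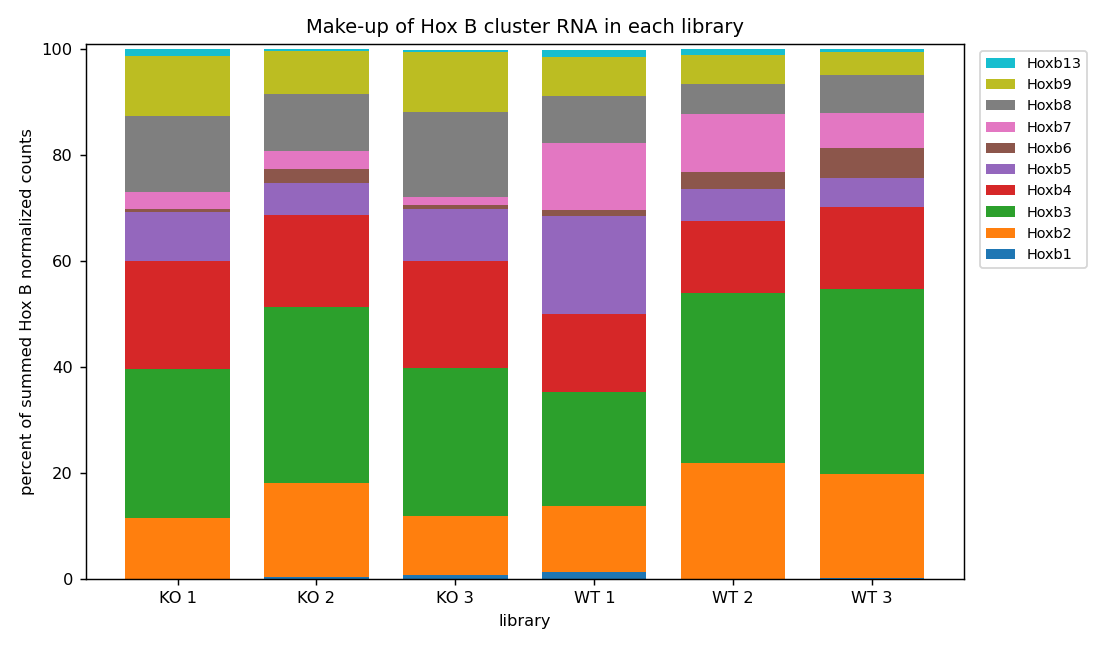
Stacked bars give the share of each Hox B gene in the summed Hox B normalized counts (percent, y axis) of each library (x axis), with the 3' gene Hoxb1 at the bottom and the 5' gene Hoxb13 on top. Hoxb7 takes 1.6 to 3.4% of the knock-out bars and 6.6 to 12.7% of the wild-type bars, while Hoxb8 takes 10.8 to 16.1% of the knock-out bars and 5.8 to 8.8% of the wild-type bars.

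**Figure D2:**
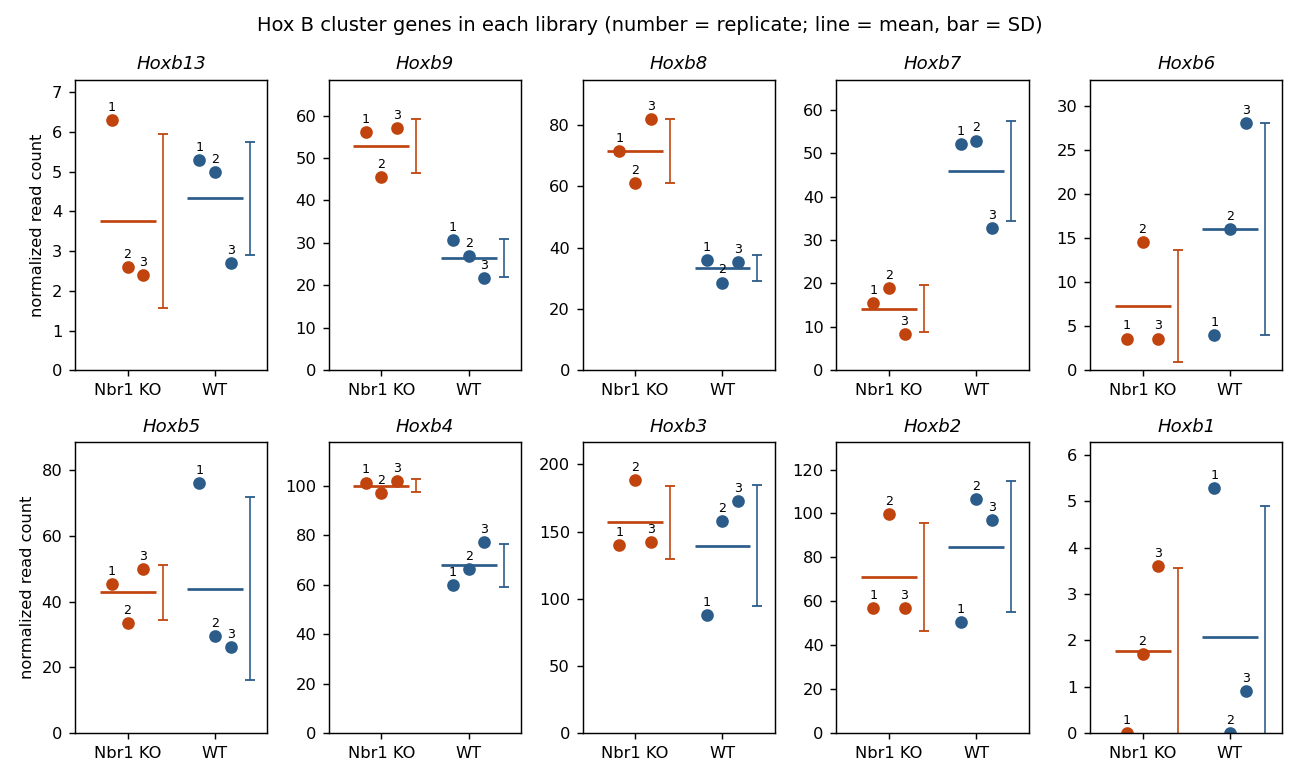
Each panel plots the normalized read count (y axis, from 0) of a Hox B gene in the 3 Nbr1 knock-out libraries and the 3 wild-type libraries, with the replicate number at each point, the group mean as a line and the SD as a bar beside it (cut at 0 for Hoxb1). Hoxb9, Hoxb8 and Hoxb4 lie higher and Hoxb7 lower in all knock-out libraries, while Hoxb6, Hoxb3 and Hoxb2 have their lowest wild-type point in replicate 1 and their highest knock-out point in replicate 2.

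At the 5' end, Hoxb13 and Hoxb9 belong to the posterior class, whose products pattern the tail end of the body axis. Hoxb13, best known from prostate and hindgut, had 7, 3 and 2 reads in knock-out libraries 1 to 3 and 4, 6 and 3 in wild-type libraries 1 to 3. With 12 reads against 13, the knock-out to wild-type ratio of 0.903 has an exact 95% interval of 0.376 to 2.15, so a difference of that size was not detectable at this depth. These intervals cover counting error only. Hoxb9, which acts in the thoracic skeleton and mammary gland, had 56.1, 45.6 and 57.0 normalized counts in knock-out libraries 1 to 3 and 30.7, 26.9 and 21.8 in wild-type libraries 1 to 3. The lowest knock-out value lay well above the highest wild-type value. The means were 52.9 ± 6.4 in the knock-out label and 26.4 ± 4.5 in the wild-type label (SD, n = 3 each), with a log2 change of 0.98 (SE 0.23) that narrowly missed the threshold (adjusted p = 0.0508). Hoxb9 passed in edgeR (adjusted p = 0.0431) and DESeq2 (adjusted p = 0.0437) on the recovered reads, and its adjusted p ranged from 0.0125 to 0.231 over the alternatives. The log2 change was 0.86 for knock-out libraries 1 and 3 against wild-type library 1 and 0.89 for knock-out library 2 against wild-type libraries 2 and 3.

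Hoxb8 and Hoxb7 sit side by side in the middle of the cluster and moved in opposite directions. Hoxb8, which acts in blood progenitors, microglia and the spinal cord, had 71.5, 61.0 and 81.9 normalized counts in knock-out libraries 1 to 3 and 36.0, 28.6 and 35.4 in wild-type libraries 1 to 3. No knock-out library came near the wild-type range. Hoxb8 rose to 71.5 ± 10.4 in the knock-out label, against 33.3 ± 4.1 in the wild-type label (SD, n = 3 each; log2 change 1.08, SE 0.21, adjusted p = 0.029), on 219 knock-out and 100 wild-type reads. Its log2 change was 1.07 in knock-out libraries 1 and 3 against wild-type library 1 and 0.92 in knock-out library 2 against wild-type libraries 2 and 3. The call was kept without wild-type library 1 (adjusted p = 0.0138) and lost without any other library (adjusted p from 0.0642 to 0.154), and also with quantile normalization (adjusted p = 0.0563) or with only genes averaging at least 50 normalized counts (adjusted p = 0.0503).

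Hoxb7, whose human counterpart is studied as a growth-promoting factor in tumours, had 15.4, 18.9 and 8.3 normalized counts in knock-out libraries 1 to 3 and 52.0, 52.9 and 32.7 in wild-type libraries 1 to 3. The groups lay apart, although each had its lowest value in replicate 3. Hoxb7 fell to 14.2 ± 5.4 in the knock-out label, against 45.9 ± 11.4 in the wild-type label (SD, n = 3 each; log2 change -1.66, SE 0.37, adjusted p = 0.0442), on 46 knock-out and 138 wild-type reads. The log2 change was -2.10 in knock-out libraries 1 and 3 against wild-type library 1 and -1.10 in knock-out library 2 against wild-type libraries 2 and 3. The call held in edgeR (adjusted p = 0.0377) and DESeq2 (adjusted p = 0.00545) and without wild-type library 1 (adjusted p = 0.0341), and was lost without any other library (adjusted p from 0.0678 to 0.16). Among the 10 genes, Hoxb7 ranked 7th by level in all 3 knock-out libraries and 4th, 4th and 5th in wild-type libraries 1 to 3.

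Hoxb6 and Hoxb5 varied widely between libraries of the same label, and their groups overlapped. Hoxb6, a gene active in early limb and lateral mesoderm, had 3.6, 14.6 and 3.6 normalized counts in knock-out libraries 1 to 3 and 4.0, 16.0 and 28.1 in wild-type libraries 1 to 3. It was near its lowest in knock-out libraries 1 and 3 and wild-type library 1, and it passed the filter through the other 3 libraries alone. With a log2 change of -0.97 (SE 0.78), Hoxb6 did not pass (adjusted p = 0.536). The log2 change was -1.69 without wild-type library 1 and -0.42 without wild-type library 3, and within the sets it was -0.12 for knock-out libraries 1 and 3 against wild-type library 1 and -0.51 for knock-out library 2 against wild-type libraries 2 and 3. Hoxb5, which acts in lung mesenchyme and enteric nerve precursors, had 45.3, 33.5 and 49.8 normalized counts in knock-out libraries 1 to 3 and 76.0, 29.4 and 26.3 in wild-type libraries 1 to 3. Here wild-type library 1 was the highest of all and the other wild-type libraries the lowest, and the log2 change of 0.11 (SE 0.42, adjusted p = 0.914) was 0.59 without wild-type library 1 and -0.67 for knock-out libraries 1 and 3 against wild-type library 1. The gene models of Hoxb6 and Hoxb5 both overlap that of the non-coding Hoxb5os, and reads of overlapping genes can be told apart only if counting used strand, which no source used here states.

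Hoxb4, known for expanding blood stem cells, had 101.4, 97.1 and 102.0 normalized counts in knock-out libraries 1 to 3 and 60.0, 66.3 and 77.2 in wild-type libraries 1 to 3. The knock-out values were close together and all above the wild-type values. The means of 100.2 ± 2.7 in the knock-out label and 67.9 ± 8.7 in the wild-type label (SD, n = 3 each) differed by 0.56 on the log2 scale (SE 0.17), which did not pass (adjusted p = 0.108), and its adjusted p ranged from 0.0241 to 0.354 over the alternatives. The log2 change was 0.75 for knock-out libraries 1 and 3 against wild-type library 1 and 0.44 for knock-out library 2 against wild-type libraries 2 and 3. Its gene model overlaps that of Hoxb3, so reads could be split between the pair in an unknown way.

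The genes next to the 3' end, which in the embryo mark the hindbrain, overlapped between the labelled groups. Hoxb3 had 140.3, 188.2 and 142.4 normalized counts in knock-out libraries 1 to 3 and 88.1, 157.9 and 172.5 in wild-type libraries 1 to 3 (log2 change 0.21, SE 0.29, adjusted p = 0.727). Wild-type library 1 was the lowest of the 6, and the log2 change was -0.09 without it. Hoxb2, which is needed for facial motor neurons, had 57.0, 99.7 and 57.0 normalized counts in knock-out libraries 1 to 3 and 50.7, 106.7 and 97.1 in wild-type libraries 1 to 3 (log2 change -0.23, SE 0.36, adjusted p = 0.773). Knock-out libraries 1 and 3 and wild-type library 1 were low, and the other 3 libraries were high. Hoxb1, a direct retinoic acid target in the embryonic hindbrain, had 0, 2 and 3 reads in knock-out libraries 1 to 3 and 4, 0 and 1 in wild-type libraries 1 to 3. Its 5 reads against 5 give a knock-out to wild-type ratio of 0.978 with an exact 95% interval of 0.225 to 4.25.

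**Figure D3:**
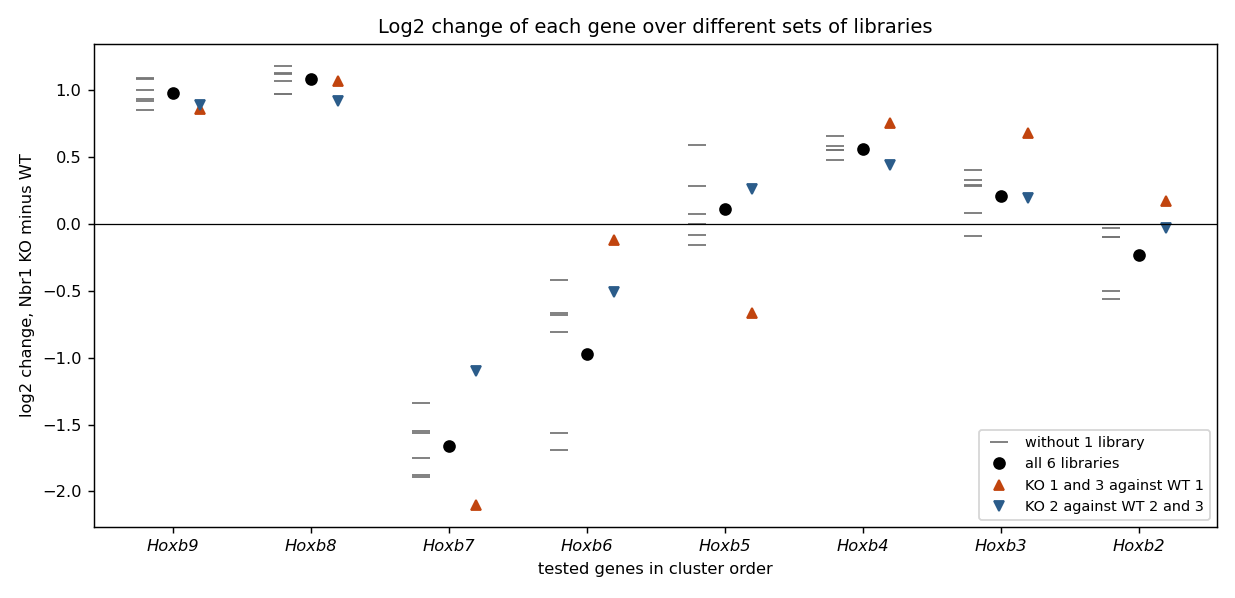
For each tested Hox B gene in cluster order (x axis) the log2 change, Nbr1 knock-out minus wild type (y axis), is given over all 6 libraries (circle), without each library in turn (dashes), and for knock-out 1 and 3 against wild-type 1 and knock-out 2 against wild-type 2 and 3 (triangles). Hoxb9, Hoxb8 and Hoxb4 stay above 0 and Hoxb7 and Hoxb6 below it in all of them, while Hoxb5, Hoxb3 and Hoxb2 cross 0.

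All 10 genes had a RefSeq position, but start region sequences (GRCm38.p6) were at hand for only 3 of them, Hoxb8, Hoxb4 and Hoxb1. These 3 regions stand for a gene that rose, a gene with separate groups that did not pass, and a gene at the limit of detection. They are shown to set the letters of a raised and a near-silent start region beside each other, each 300 bases long and running from 250 bases before to 50 after the annotated start. Capitals mark any match, on either strand, to TATAAA (the core promoter box), AGGTCA (the half-site of retinoic acid receptors), TGATNNAT (bound by HOX with PBX), TTTATG (bound by CDX factors) or CACGTG (the E-box of USF factors).
Hoxb8, chr11:96281655-96281954, plus strand: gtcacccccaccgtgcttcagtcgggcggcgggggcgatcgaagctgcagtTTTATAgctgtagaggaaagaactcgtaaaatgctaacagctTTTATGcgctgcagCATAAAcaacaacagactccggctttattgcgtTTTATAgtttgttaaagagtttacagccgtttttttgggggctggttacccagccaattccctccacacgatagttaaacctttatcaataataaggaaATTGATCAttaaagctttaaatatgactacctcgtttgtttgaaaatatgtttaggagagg
Hoxb4, chr11:96318017-96318316, plus strand: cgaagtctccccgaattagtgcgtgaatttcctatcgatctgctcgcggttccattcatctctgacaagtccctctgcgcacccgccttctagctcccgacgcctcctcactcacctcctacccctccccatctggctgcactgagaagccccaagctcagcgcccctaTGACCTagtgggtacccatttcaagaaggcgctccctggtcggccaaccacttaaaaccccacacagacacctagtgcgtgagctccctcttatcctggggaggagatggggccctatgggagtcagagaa
Hoxb1, chr11:96365508-96365807, plus strand: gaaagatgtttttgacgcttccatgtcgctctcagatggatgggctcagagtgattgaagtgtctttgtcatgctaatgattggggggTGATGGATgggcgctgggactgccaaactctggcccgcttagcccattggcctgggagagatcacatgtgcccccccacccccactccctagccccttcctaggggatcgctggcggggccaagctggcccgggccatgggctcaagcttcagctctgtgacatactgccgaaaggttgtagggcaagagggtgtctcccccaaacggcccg

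The Hoxb8 region was the poorest of the 3 in G and C, at 42.3%, against 58% for Hoxb4 and 59.3% for Hoxb1, where the median of 32851 mouse promoters was 52.7%. It held 13 CpG pairs, Hoxb4 14 and Hoxb1 10, all above the median of 7. The Hoxb8 region matched TATAAA 2 times, both on the opposite strand and neither close to the start, TTTATG 2 times and TGATNNAT 1 time, with the last match beginning 11 bases before the start. Of all promoters of this length 13.6% hold TATAAA, 11.9% TTTATG and 8.85% TGATNNAT. The Hoxb4 region held 1 AGGTCA on the opposite strand, found in 16.3% of promoters, and the Hoxb1 region 1 TGATNNAT. CACGTG, present in 7.15% of promoters, matched none of the 3. A match describes letters only and is not a binding site.

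Non-coding transcripts of the cluster were followed beside the coding genes. Hoxb5os had 4, 4 and 2 reads in knock-out libraries 1 to 3 and 3, 37 and 27 in wild-type libraries 1 to 3. Wild-type libraries 2 and 3 thus stood apart from the other 4 libraries, knock-out library 2 included. Hoxb5os did not pass the filter, and without the filter the test gave a log2 change of -1.96 (SE 0.70, adjusted p = 0.16). Hoxblinc, a long non-coding RNA that in mouse activates anterior Hox B genes, had 16.3, 12.0 and 14.2 normalized counts in knock-out libraries 1 to 3 and 25.3, 20.2 and 25.4 in wild-type libraries 1 to 3. Every knock-out value was lower than every wild-type value, but with a log2 change of -0.70 (SE 0.25) Hoxblinc missed the threshold (adjusted p = 0.163). Hoxb3os, whose model overlaps those of Hoxb3 and Hoxb2, overlapped between the groups (11.7 ± 2.0 and 12.7 ± 7.6 normalized counts in the knock-out and wild-type label, SD, n = 3 each, log2 change 0.02, SE 0.43). Gm11538 had 8 reads in the knock-out label and 19 in the wild-type label.

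Genes flanking the cluster were ordered by the RefSeq table, and the 10 nearest rows of the deposited table on each side were read. Beyond Hoxb13, 5 of 10 were tested and only Igf2bp1, which encodes an mRNA-binding protein of fetal tissues, passed. It had 206.4, 183.9 and 230.2 normalized counts in knock-out libraries 1 to 3 and 378.9, 301.5 and 335.0 in wild-type libraries 1 to 3 (log2 change -0.71, SE 0.16, adjusted p = 0.0449). On this side 2 genes had an unadjusted p under 0.05 in limma. The median log2 change was -0.36, against -0.01 beyond Hoxb1. Zfp652 had a log2 change of -0.97 (SE 0.32) and groups that did not overlap, but did not pass (adjusted p = 0.133). Beyond Hoxb1, 8 of 10 were tested and 0 passed in limma, with 0 at an unadjusted p under 0.05, 0 in edgeR and 0 in DESeq2. The nearest of these, Snx11, had a log2 change of 0.23 (SE 0.42) and Cbx1, which encodes a heterochromatin protein, of -0.09 (SE 0.16). Nbr1 lies on the same chromosome, on the Hoxb1 side. Of 92 tested genes between the cluster and Nbr1, P3h4 was higher and Krt14 lower, or 2.17%, and of 879 tested genes on chromosome 11 5.92% passed. With each chromosome's median change removed, the log2 changes of Hoxb8 and Hoxb7 were 1.08 and -1.65 (adjusted p = 0.0267 and 0.0492).

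**Figure D4:**
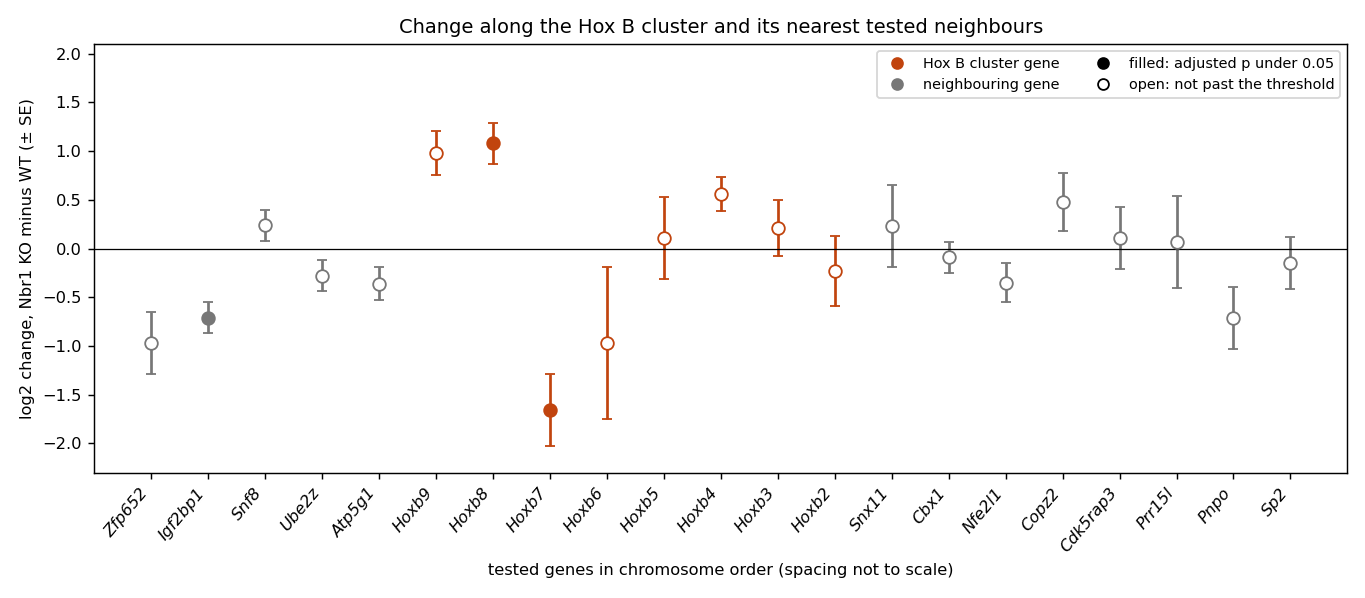
The log2 change of normalized counts, Nbr1 knock-out minus wild type, with its SE (y axis) is drawn for the 8 tested Hox B genes and their tested neighbours in chromosome order (x axis, spacing not to scale), filled where the adjusted p was under 0.05. Hoxb9 and Hoxb8 stand near 1, Hoxb7 falls to -1.66, and the tested genes beyond Hoxb1 lie between -0.71 and 0.48.

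The Hox A and Hox C clusters gave a second view of the same paralogue groups, the sets of like-numbered genes that descend from a shared ancestor. Hox D genes had 0 rows in the deposited table, where no row had fewer than 9 reads over all libraries. Of 7 tested Hox A genes, Hoxa5 was higher and Hoxa10 lower, and of 5 tested Hox C genes all 5 were lower (Hoxc4, Hoxc6, Hoxc9, Hoxc10 and Hoxc13). The shares called were 28.6% and 100%, beside 6.92% of all tested genes. The 5 Hox C genes passed the filter through the wild-type libraries alone, so each could only be called as lower. Their share of 100% is therefore no independent support beside that background. Hoxa5 averaged 629.1 ± 73.7 and 362.2 ± 34.4 normalized counts in the knock-out and wild-type label (SD, n = 3 each; log2 change 0.79, SE 0.15, adjusted p = 0.0238), where its paralogue Hoxb5 had a log2 change of 0.11. Hoxa7 had a log2 change of -0.30 (SE 0.28, adjusted p = 0.609), where Hoxb7 had -1.66. In group 9, Hoxb9 stood at 52.9 ± 6.4 normalized counts in the knock-out label and 26.4 ± 4.5 in the wild-type label, while Hoxc9 stood at 0.7 ± 0.6 in the knock-out label and 37.6 ± 4.2 in the wild-type label (SD, n = 3 each). In group 4, Hoxb4 was 1.48 times as high in the knock-out label, Hoxa4 had a log2 change of 0.03 (SE 0.24), and Hoxc4, with 0 knock-out reads, was at least 19.4-fold lower when 3 reads are taken as the limit for the whole group. In group 8, where Hoxb8 was higher in the knock-out label, Hoxc8 did not pass the filter. It had 1 read in the knock-out label and 28 in the wild-type label. Whether these changes differ between paralogues was not tested.

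HOX proteins bind DNA together with TALE homeodomain partners of the PBX, MEIS and PKNOX families. Of 8 tested TALE genes, 2 rose and 0 fell, or 25% called beside 6.92% of all tested genes. Meis1 stood at 213.6, 220.0 and 214.8 normalized counts in knock-out libraries 1 to 3 and at 8.0, 21.0 and 37.2 in wild-type libraries 1 to 3 (log2 change 3.47, SE 0.49, adjusted p = 0.00958). Pknox2 averaged 23.4 ± 5.2 and 3.8 ± 1.4 in the knock-out and wild-type label (SD, n = 3 each, adjusted p = 0.0112). Pknox2 passed the filter through the knock-out libraries alone, so it could only be called as higher, which limits the share called. Pbx3 and Pbx4 had log2 changes of -0.39 and 0.64 (adjusted p = 0.235 and 0.287). The median log2 change of the list was 0.21.

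Retinoic acid is the classical inducer of 3' Hox genes, and 11 of 22 genes for its supply, breakdown and receptors were tested, of which 4 rose and 0 fell. This makes 36.4% called, beside 6.92% of all tested genes. The list joins genes for supply and for breakdown, so the count gives no direction for retinoic acid itself. Crabp1, which encodes a retinoic acid-binding protein, had 44.4, 41.3 and 48.7 normalized counts in knock-out libraries 1 to 3 and 0 reads in all wild-type libraries, at least 45-fold higher. Crabp1 passed the filter through the knock-out libraries alone, so it could only be called as higher, which limits the share called. Rdh10, which makes retinaldehyde, averaged 135.7 ± 14.8 and 24.7 ± 9.3 (log2 change 2.47, SE 0.29, adjusted p = 0.00478) in the knock-out and wild-type label (SD, n = 3 each). Aldh1a1 and Dhrs3 also rose (log2 change 0.89 and 1.47). The list's median log2 change was 0.32. Of the 3' Hox B genes, Hoxb2, Hoxb3 and Hoxb4 did not pass, and Hoxb1 was too low to be tested. The Hoxb4 groups did not overlap. Any link between the retinoid genes and the Hox B values was not tested.

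Genes that regulate Hox clusters through chromatin or by binding their DNA were counted beside the 6.92% of all tested genes that passed. The share was 3.57% for Polycomb, 0% for trithorax and MLL, 9.09% for CTCF and cohesin and 10% for sequence-specific regulators, which is 0 or 1 gene in each list. Of 28 tested Polycomb genes, only Suz12, a core subunit of the complex that methylates histone H3, passed. It was lower, at 436.6 ± 16.7 and 643.2 ± 22.4 normalized counts in the knock-out and wild-type label (SD, n = 3 each; log2 change -0.56, SE 0.11, adjusted p = 0.0345). Its catalytic partner Ezh2 had a log2 change of -0.46 (adjusted p = 0.195). Of 21 tested trithorax and MLL genes, 0 passed in limma, 2 had an unadjusted p under 0.05, and 0 passed in edgeR and 0 in DESeq2. Those with the smallest p in limma, Ash1l and Kdm6a, had log2 changes of -0.56 and -0.53 (adjusted p = 0.101 and 0.134). Of 11 tested genes of CTCF and cohesin, which fold Hox clusters into loops, Wapl, the cohesin release factor, was lower (130.2 ± 10.1 and 212.8 ± 25.7 in the knock-out and wild-type label, SD, n = 3 each, adjusted p = 0.047). In this list 0 genes passed in edgeR, Wapl included, and 2 in DESeq2. Of 10 tested sequence-specific regulators, Tfap2a fell to 7.2 ± 1.5 in the knock-out label, against 33.7 ± 9.9 in the wild-type label (SD, n = 3 each, adjusted p = 0.0145). Tfap2a passed the filter through the wild-type libraries alone, so it could only be called as lower. The median log2 changes of these lists were -0.26, -0.18, -0.16 and -0.13.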

How the data were processed

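QuantSeq 3'-end RNA libraries were analysed, 3 per genotype label. The authors deposited a normalized read count signal per gene symbol, and GRCm39 and DESeq2 appear, per the submitters' processing notes, with no DESeq2 version given. Aligner, annotation and use of strand or molecular identifiers are not given in the sources used here. Within a library every value was a whole number of equal steps (tolerance 0.01), so whole reads were recovered. Totals were 1508518 to 2383879 reads per library.

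Genes with at least 10 normalized counts in at least 3 libraries (10540 of 13341) were tested with limma 3.58.1 in R 4.3.3 on log2(value + 1), which understates the change of low genes, with a variance trend, genotype as the only term, two-sided, Benjamini-Hochberg threshold 0.05. Fold changes are ratios of mean normalized counts. The limma test was also run on simulated counts with known changes. These counts held no library sets like those seen here, so that run does not show how the test performs on these data. Alternatives were other pseudocounts, filters, scalings and terms, edgeR 4.0.16, DESeq2 1.42.0 and leaving out each library. Ratios of few reads have exact (Clopper-Pearson) 95% intervals. RefSeq on GRCm38.p6 gave gene order and promoters, and 13037 symbols matched.

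The genes and lists were chosen with earlier results of these data known. Named were all Hox B genes, the neighbours past the threshold and, from each list, up to 4 genes with the smallest p, with further genes shown to complete a comparison.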

Additional observations from a re-analysis of the deposited data

How the results depend on the processing

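Hoxb8, Hoxb7, Hoxb9, Hoxb4 and Hoxb6 kept their direction under each alternative that gave them a value. Leaving out 1 library at a time gave log2 changes of 0.97 to 1.18 for Hoxb8, -1.89 to -1.34 for Hoxb7, 0.85 to 1.09 for Hoxb9, 0.48 to 0.66 for Hoxb4, -0.09 to 0.40 for Hoxb3, -0.56 to -0.03 for Hoxb2, -0.16 to 0.59 for Hoxb5 and -1.69 to -0.42 for Hoxb6. Of the Hox B genes, 0 to 3 then passed, and of all genes 200 (without knock-out library 1) to 2228 (without wild-type library 1), against 2 and 729 with all 6. Hoxb8 lost its call at 1.08 with only genes averaging at least 50 normalized counts and at 1.04 with quantile normalization. The first of these tested fewer genes, with Hoxb7 not among them, and left 0 Hox B calls and 380 calls in all. The second left 1 Hox B call. Hoxb9 passed with a pseudocount of 5 (0.88), TMM factors (0.98), no variance trend (0.98), chromosome medians removed (0.99), edgeR (1.02) and DESeq2 (1.00).

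A term for the library sets gave 2791 calls in all and 4 Hox B calls: Hoxb8 and Hoxb7, with Hoxb9 at 0.87 and Hoxb4 at 0.59 added. It turned Hoxb2 to 0.07 and Hoxb5 to -0.20, and DESeq2 turned Hoxb5 to -0.03. Knock-out libraries 1 and 3 against wild-type library 1 gave 0.17 for Hoxb2, 0.68 for Hoxb3, 0.75 for Hoxb4 and -0.67 for Hoxb5, and knock-out library 2 against wild-type libraries 2 and 3 gave -1.10 for Hoxb7. The sets were drawn from these same data, and the cause of these shifts was not tested.

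The replicate numbers did not pair the libraries: deviations from the group means correlated at 0.45, 0.70 and -0.62 for numbers 1, 2 and 3, and not every library correlated best with its own number. With the replicate number as a block, 476 genes and 1 Hox B gene passed, and Hoxb8 had 1.08 (adjusted p = 0.0573). Of the 3066 Hox B reads in all, Hoxb1 had 5 in each label and Hoxb13 had 12 in the knock-out and 13 in the wild-type label, so depth limits both.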

Other observations

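The opposite changes of Hoxb8 and Hoxb7 can be read inside each library, where scaling between libraries cancels. Chosen after the values were seen, the number of Hoxb8 reads per Hoxb7 read was 4.65, 3.23 and 9.86 in knock-out libraries 1 to 3 and 0.692, 0.54 and 1.08 in wild-type libraries 1 to 3. Hoxb9 reads per Hoxb7 read were 3.65, 2.41 and 6.86 in the knock-out label and 0.59, 0.508 and 0.667 in the wild-type label. The groups lay apart for both ratios. This was fixed in advance, since Hoxb8 and Hoxb9 were higher and Hoxb7 lower in every knock-out library, so the ratios add no further test. Hoxb8 reads per Hoxb9 read were 1.27, 1.34 and 1.44 in knock-out libraries 1 to 3 and 1.17, 1.06 and 1.62 in wild-type libraries 1 to 3, which overlap. Hoxb5 reads per Hoxb6 read were 12.5, 2.29 and 14 in knock-out libraries 1 to 3 and 19, 1.84 and 0.935 in wild-type libraries 1 to 3, so the ratio was highest in knock-out libraries 1 and 3 and in wild-type library 1, and the labelled groups overlapped.

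The genes whose log2 level over the 6 libraries was most like the summed Hox B level were Marcks (r = 0.995), Pierce2 (0.994), Lrrc8b (0.994), Lifr (0.993) and Slc43a3 (0.992). These are the highest of 10159 genes compared, of which 458 had r over 0.9. Each named gene was lowest in wild-type library 1 and highest in knock-out library 2, as was the summed Hox B level. These genes did not pass between the labels in limma (adjusted p from 0.283 to 0.352). The 6 points share the depth and scaling of their libraries with the Hox B values.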
